A study of Mus musculus with 8 samples.

Results

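Splicing factors and hnRNP proteins were followed through the first step of differentiation of mouse embryonic stem (ES) cells, both in total RNA and in RNA held by ribosomes. The genes were chosen by name. Every gene of the deposited table whose symbol begins with Hnrn, Srsf, Srrm, Sf3, U2af, Snrp, Snrnp, Prpf, Rbm followed by a digit or x, Ptbp, Celf, Mbnl, Khdrbs, Tra2, Cpsf or Cstf, or equals Sf1, was taken. This gave 73 genes of 3160, or 2.31%, by a rule that uses names alone. Of the 151 protein-coding genes of the RefSeq annotation with such names, 73 are thus described here. They are all called splicing genes below, although a few are better known for 3′ end formation.

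The ES cells were the E14Tg2A line (strain 129/Ola), a single clonal line, sampled at 0 days of differentiation. The epiblast-like aggregates (ELA) were the same line after 2 days as floating aggregates in a chemically defined medium, without serum or leukaemia inhibitory factor. At each stage the RNA of the whole lysate (input, or total RNA) was sequenced beside the RNA captured with an antibody against the endogenous ribosomal protein Rpl10a (Rpl10a-IP, or ribosome-bound RNA), in 2 libraries per group and 8 in all. Cycloheximide, which stalls ribosomes on the message, was present in all 4 groups, and no allele or transgene was introduced. The labels do not say whether the 2 libraries of a group came from separate cultures, so p-values measure only the spread between these libraries. In bulk RNA, fewer cells of a kind and less RNA per cell cannot be told apart.

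A gene is interrupted by introns, which the spliceosome removes from the pre-mRNA. Its small nuclear ribonucleoproteins (snRNPs) and the SF3 and U2AF factors recognise the intron ends and the branch point, and PRP factors remodel and hold the catalytic core. SR proteins mostly promote, and many hnRNP proteins often repress, the use of nearby exons, while PTBP, CELF, KHDRBS and many RBM proteins set tissue-specific choices. Pluripotent cells and their descendants are known to use different splice variants of the same genes.

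Depth was uneven. Over the 3160 genes described here, the ES cell inputs held 5380139 and 3898414 reads and the ES cell IPs 18077263 and 19233487. The ELA inputs held 159587 and 410192, and the ELA IPs 23483388 and 16076207. These sums leave out all reads outside those genes, and the whole libraries were larger by the paper's account. The splicing genes had 10 to 528 reads (median 57) in the first ELA input and 25 to 1355 (median 151) in the second, and no member stood at or below 3 reads. The study set the first ELA input aside for its poor correlation with the other libraries, low mappability and read quality, and PCR duplicates. It is kept here in each comparison that needs ELA inputs, which would otherwise rest on 1 of them, and the values without it are given beside the counts over all 73 genes and for several of the roles. At the median the counting error alone was therefore 13.2% and 8.14% of the value. All 3160 genes had a mean input of at least 50.0 in one stage on the deposited scale and an IP/input ratio whose SD was at most 0.200 of its mean in either stage, which shows a filter on replicate spread, so p-values below are smaller than they would be for unselected genes. Counts were scaled to a common library size and are given as normalised counts. Of the naive ES cell marker list, 5 of 11 genes were in the table and their summed normalised count was 18266 to 18687 in ES cell inputs and 1982 to 2148 in ELA inputs. Of the primed epiblast list, 2 of 10 genes were in the table, Dnmt3a and Dnmt3b, which methylate DNA de novo. They summed to 4274 to 4550 in ES cell inputs and to 20437 to 22131 in ELA inputs. Of the core pluripotency list, 2 of 4 genes were in the table. In total RNA Pou5f1 fell (log2 change −1.18) and Sall4 rose (0.25). The neural marker Nes, the only 1 of 4 listed that was in the table, had 372 to 375 in ES cell inputs and 2035 to 2229 in ELA inputs. Vim, 1 of 5 genes of the fibroblast or feeder list, fell in total RNA (log2 change −0.90). No endoderm or mesoderm marker of the lists was in the table.

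The products of the largest families are recognised by their repeats, which can be read in the coding sequence. Stretches of 20 codons are shown for members on which the results turn: for SR proteins the stretch richest in arginine and serine codons, for hnRNP A proteins the one richest in glycine codons, with those codons in capitals. The sequences are from the GENCODE vM1 annotation, 5′ to 3′, coding strand.
Srsf1, coding bases 610 to 669: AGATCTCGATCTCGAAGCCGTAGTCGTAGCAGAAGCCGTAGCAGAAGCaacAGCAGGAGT
Srsf2, coding bases 508 to 567: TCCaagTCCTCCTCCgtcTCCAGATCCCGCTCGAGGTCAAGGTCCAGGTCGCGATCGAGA
Hnrnpa0, coding bases 562 to 621: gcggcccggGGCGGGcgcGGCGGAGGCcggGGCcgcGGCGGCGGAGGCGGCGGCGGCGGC
Hnrnpa3, coding bases 868 to 927: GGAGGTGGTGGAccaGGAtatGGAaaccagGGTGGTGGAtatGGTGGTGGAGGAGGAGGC

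The RS stretch of Srsf1 held 19 arginine or serine codons of 20 and that of Srsf2 held 18, while the glycine stretches of Hnrnpa0 and Hnrnpa3 held 14 and 15 glycine codons. Over the whole coding sequence, arginine and serine made up 22.1% to 42.5% of the codons of the 9 SR and SR-related genes, against a median of 14.4% over all 73. Glycine made up a median of 12.9% of the codons of the 18 hnRNP genes, against 8.06% over all 73.

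Ribosome enrichment is the ratio of Rpl10a-IP to input. Inputs and IPs were scaled together, so here and below it is relative to the average gene. A shift shared by all genes cannot be seen. The paper gives the same limit for its own normalisation and cites reports of a general rise of the translation machinery in differentiation. On this relative scale enrichment was near 1 for most splicing genes in ES cells and below 1 for most of them in ELA. In ES cells 8 of the 73 genes were enriched in the IP and 19 were depleted, against a background of 19.5% higher and 20.0% lower among all 3160 genes (limma, Benjamini-Hochberg adjusted p under 0.05). The median log2 enrichment of the splicing genes was −0.11, against −0.02 over all genes. In ELA 9 were enriched and 50 were depleted, against a background of 36.8% higher and 37.2% lower, with a median of −0.60 against −0.01. Without the first ELA input 10 were enriched and 50 depleted (background 36.8% and 38.2%). Another fit had transcript length and GC content removed and the replicate number as a block. It is called the length-corrected fit, and values given below with length and GC content removed come from it as well. There 14 were enriched and 40 depleted in ELA, against a background of 37.9% and 36.0%, with a median of −0.34. In ES cells 12 were enriched and 22 depleted in that fit (background 21.4% and 19.3%). Both ELA IP libraries lay below both ELA input libraries for 53 of the 73 genes, which is 72.6%, against 41.8% of all genes. The ES cell calls were the less stable: without the first ES cell input 10 genes, not 19, were depleted.

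The test of the difference between the stages was the change in ribosome enrichment, the ELA log2 ratio minus the ES cell log2 ratio. It was lower for 44 splicing genes and higher for 9, against a background of 27.7% lower and 28.4% higher. Their median was −0.46 on the log2 scale, against 0.01 over all genes. Beyond a 2-fold change, 16 splicing genes were lower and 2 were higher, where the background was 9.05% and 6.33%. Without the first ELA input, the shallowest library, 46 were lower and 11 higher (background 30.5% and 30.4%), among the lower ones 14 of 18 hnRNP, all 9 SR and SR-related and all 8 snRNP genes. Transcript length moved with this change, as described below. In the length-corrected fit 31 were lower and 8 higher, against a background of 25.9% and 27.5%. In that fit the median was −0.23, and beyond a 2-fold change 5 were lower and 2 higher, against 4.52% and 3.85% of the 3120 genes tested.

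**Figure D1:**
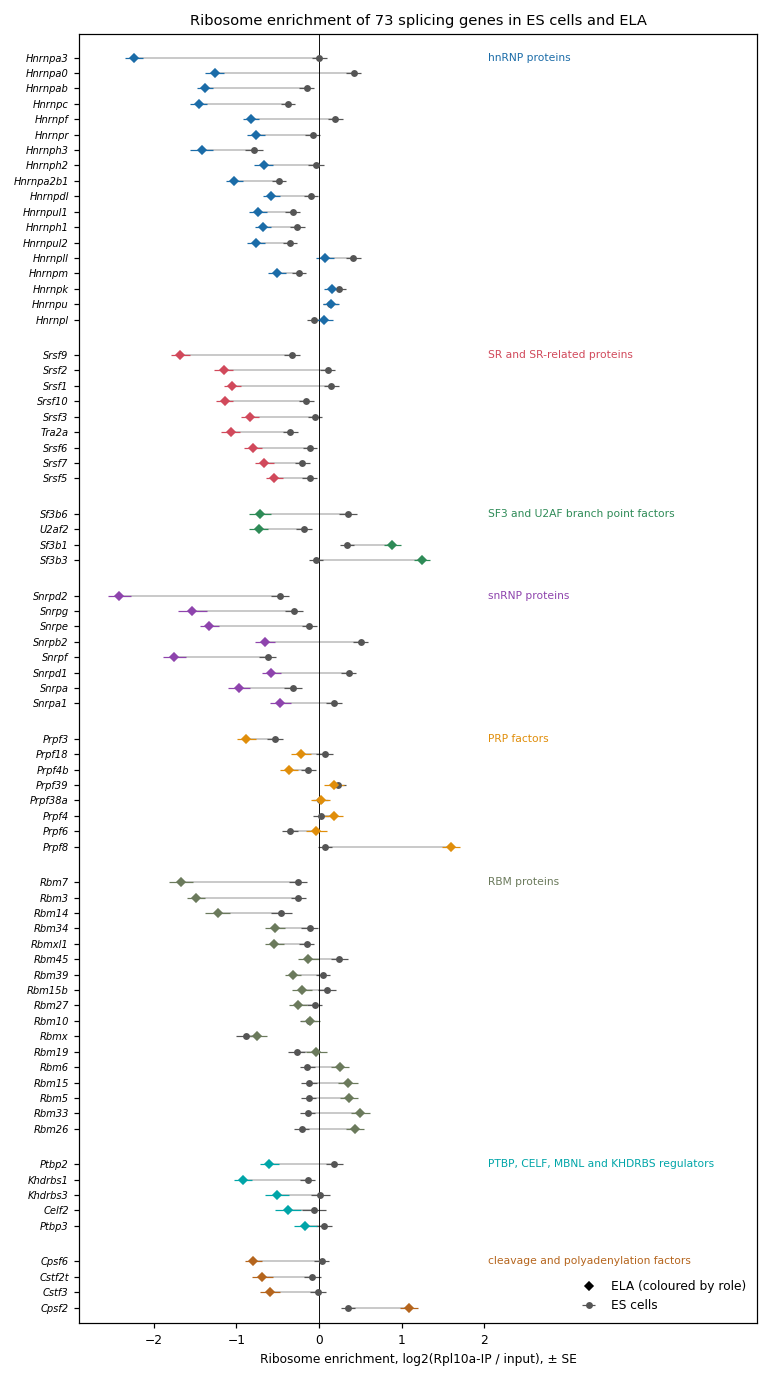
Ribosome enrichment of each of the 73 splicing genes, on the x axis as log2 of Rpl10a-IP over input, in ES cells (grey circles) and ELA (diamonds coloured by role), with bars of 1 standard error of the limma fit. Most diamonds lie left of their circle, and the longest shift to the left is that of Hnrnpa3 (−2.24), while Prpf8 and Sf3b3 shift furthest to the right.

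Total RNA took no such common direction in the main fit. From ES cells to ELA 20 splicing genes rose and 26 fell in the input, against a background of 34.5% and 35.8%. Their median was −0.11 on the log2 scale (−0.02 over all genes). With the deposited scaling 18 rose and 35 fell (background 29.6% and 41.4%), with a median of −0.21 (−0.12 over all genes). In the Rpl10a-IP, 16 rose and 46 fell, against a background of 41.1% and 42.3%, with a median of −0.54 (−0.02 over all genes). In the length-corrected fit 20 rose and 42 fell in the IP (background 39.1% and 38.7%), with a median of −0.21, and 18 rose and 24 fell in the input (background 32.8% and 37.5%). Without the first ES cell input 16 genes, not 26, fell in total RNA, and without the first ELA input 20 rose and 25 fell (background 35.3% and 36.4%). The splicing genes took 4.55% and 4.47% of the reads of all genes in the ES cell inputs and 4.41% and 4.47% in the ELA inputs. In the IPs their share was 4.28% and 4.38% in ES cells and 3.25% and 3.28% in ELA, the lowest of the 4 groups.

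**Figure D2:**
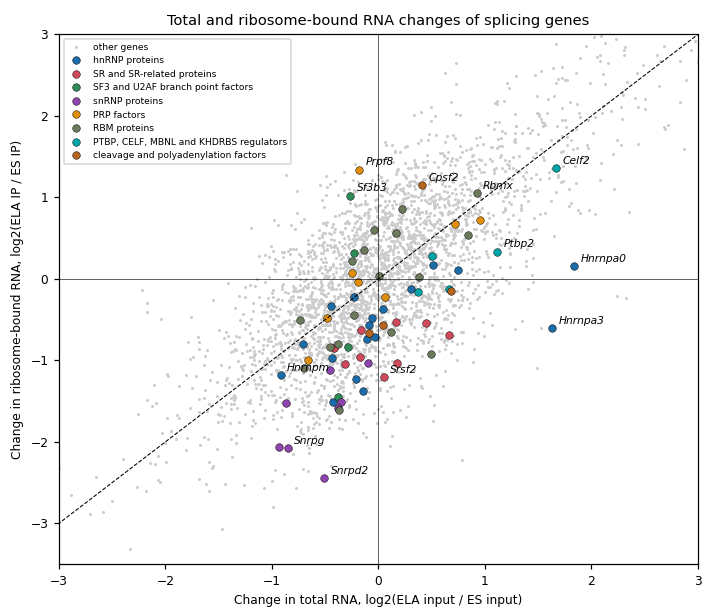
Change in total RNA (x axis, log2 of ELA input over ES cell input) against change in ribosome-bound RNA (y axis, log2 of ELA IP over ES cell IP) for the splicing genes, coloured by role, over the other genes of the table in grey. The dashed line marks equal change, and 56 of the 73 splicing genes lie below it.

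Across the 73 splicing genes the changes in total and ribosome-bound RNA had a Pearson r of 0.58 (Spearman rho 0.62), against 0.75 over all 3160 genes. Genes are not independent replicates, all points come from the same 8 libraries, and the values are given as a description. The 44 genes whose ribosome enrichment fell were of several kinds. Total RNA rose in 12 of them (16.4% of the splicing genes, background 11.3%), fell in 16 (21.9%, background 8.42%) and did not pass the test in 16 (21.9%, background 7.97%). Without the first ELA input these counts were 13, 14 and 19, against a background of 12.8%, 9.05% and 8.64%. The first kind were Hnrnpa0, Hnrnpa3, Hnrnph3, Hnrnpul1, Srsf9, Srsf10, Khdrbs1, Khdrbs3, Ptbp2, Rbm7, Rbm39 and Cpsf6. This list was not the same without the first ELA input, as Rbm7 and Rbm39 left it and Hnrnpll, Ptbp3 and Srsf1 joined it. Depletion was called in ELA and not in ES cells for 29 splicing genes (39.7%, background 20.9%) and in both stages for 17 (23.3%, background 14.1%). Both counts rest on the ES cell calls, which were the less stable, as given above. Hnrnpa0, Sf3b6, Snrpb2 and Snrpd1 were enriched in ES cells and depleted in ELA (5.48%, background 2.31%). In the length-corrected fit only Hnrnpa0 of the 4 was depleted in ELA, with 0.05 for Sf3b6 and −0.09 for Snrpb2 not passing the test and Snrpd1 enriched (0.44).

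The hnRNP proteins coat nascent transcripts. Of 18 measured hnRNP genes, ribosome enrichment fell from ES cells to ELA in 13 (72.2%, background 27.7%) and rose in none. Total RNA rose in 5 and fell in 6 (27.8% and 33.3%), near the background of 34.5% and 35.8%. Hnrnpa3 (chr2:75659105-75669407, GRCm38), an hnRNP A/B family member, had normalised counts of 1444 and 1563 in the ES cell inputs, 1508 and 1506 in the ES cell IPs, 4350 and 4982 in the ELA inputs and 1028 and 949 in the ELA IPs. Its ELA inputs were the highest of the 8 libraries and its ELA IPs the lowest, with no overlap between groups at either stage change. Total RNA thus rose 3.10-fold, ribosome-bound RNA fell (log2 change −0.61), and the change in enrichment was −2.24 ± 0.15 (SE; limma, adjusted p = 1.5e-13), the lowest of the 73. The 2 ratios of IP to input were 1.04 and 0.963 in ES cells and 0.236 and 0.190 in ELA.

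Hnrnpa0 (chr13:58125879-58128556, GRCm38), a relative encoded by a gene without introns, behaved alike in the input. Its normalised counts were 1073 and 1188 in the ES cell inputs, 1502 and 1526 in the ES cell IPs, 4051 and 4028 in the ELA inputs and 1924 and 1474 in the ELA IPs. Total RNA rose 3.57-fold, the largest rise of the 73, whereas the change in ribosome-bound RNA of 0.15 did not pass the test. In the length-corrected fit ribosome-bound RNA rose as well (0.29) and passed it. The change in enrichment was −1.68 ± 0.16 (limma, adjusted p = 3.8e-10).

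In the rest of the family the falls were smaller. Hnrnpab, an A/B-type protein, had a change in enrichment of −1.23, and its total RNA change of −0.15 did not pass the test. Hnrnpc, which binds uridine tracts and packages nascent RNA, changed by −1.09, and Hnrnpf, which binds G tracts, by −1.02. The G-tract binders Hnrnph1, Hnrnph2 and Hnrnph3 changed by −0.42, −0.63 and −0.64, so all 4 H/F genes fell. In the fit with length and GC content removed 2 of the 4 did, and Hnrnph1 (−0.13) and Hnrnph3 (−0.25) no longer passed the test. Hnrnpa2b1 and Hnrnpdl changed by −0.54 and −0.48, Hnrnpr by −0.68, and the U-like Hnrnpul1 and Hnrnpul2 by −0.42 and −0.41. The length-corrected fit called 11 of the 18 hnRNP genes lower (background 25.9%) and none higher, and Hnrnpa2b1 (−0.23) lost its call beside Hnrnph1 and Hnrnph3, while Hnrnpm (−0.42) gained one.

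A second set of hnRNP genes did not pass this test. The change in enrichment was −0.09 ± 0.14 for Hnrnpk, a poly(C)-binding protein, 0.01 ± 0.13 for the nuclear scaffold protein Hnrnpu, and 0.12 ± 0.15 for Hnrnpl, which binds CA repeats. Hnrnpll and Hnrnpm had −0.34 and −0.27. In total RNA Hnrnpk fell (log2 change −0.71), from 12256 and 11275 to 7096 and 7272 in the inputs, and its ribosome-bound RNA fell alongside (−0.80). Hnrnpm, an RNA-binding splicing regulator, fell by more in total RNA (−0.92) and in ribosome-bound RNA (−1.18). The inputs of the stages did not overlap, with 5456 and 4892 in the ES cell inputs and 2964 and 2523 in the ELA inputs.

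**Figure D3:**
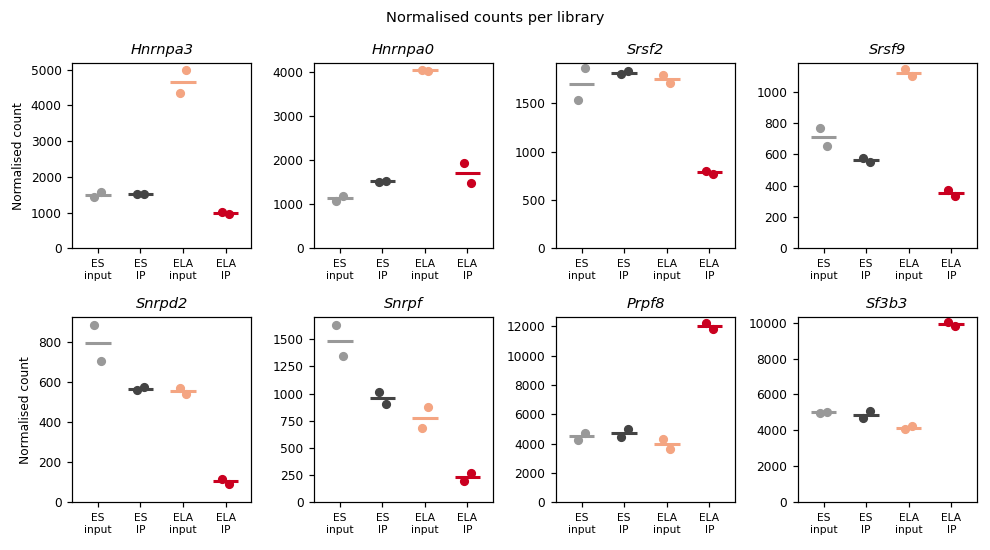
Normalised counts (y axis, linear from 0) of 8 splicing genes in each of the 8 libraries, as points, with the mean of the 2 libraries of a group as a bar. Hnrnpa3, Hnrnpa0 and Srsf9 are highest in the ELA inputs, Hnrnpa3, Srsf9, Srsf2, Snrpd2 and Snrpf are lowest in the ELA IPs, and Prpf8 and Sf3b3 are highest there.

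All 9 SR and SR-related genes lost ribosome enrichment from ES cells to ELA (background 27.7%). Their total RNA rose in 2 (Srsf9 and Srsf10), fell in 2 (Srsf5 and Tra2a) and did not pass the test in 5 (22.2% each way, below the background of 34.5% and 35.8%), while their ribosome-bound RNA fell in all 9 (background 42.3%). In ES cells 2 of the 9 were depleted in the IP (Srsf9 and Tra2a), and in ELA all 9 were (background 20.0% and 37.2%). The length-corrected fit called 5 depleted in ES cells and 7 in ELA (background 19.3% and 36.0%), and total RNA rose in 3 and fell in 4 (background 32.8% and 37.5%). The change in enrichment was lower there in 6 of the 9 (background 25.9%), with 0.12 for Srsf5, 0.16 for Srsf7 and −0.21 for Srsf3 not passing the test, and ribosome-bound RNA was lower in 6 and higher in 1 (background 38.7% and 39.1%). Srsf2 (chr11:116849897-116853675, GRCm38), whose RS stretch is shown above and which binds exonic enhancers, had 1531 and 1863 in the ES cell inputs, 1805 and 1833 in the ES cell IPs, 1794 and 1707 in the ELA inputs and 804 and 768 in the ELA IPs. The ELA IPs stood apart from the other 6 libraries, which overlapped. The change in enrichment was −1.26 ± 0.16 (limma, adjusted p = 5.2e-08), with a total RNA change of 0.05 ± 0.11. In the length-corrected fit its total RNA rose (0.46).

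Srsf1 (chr11:88046499-88053757, GRCm38), the founding SR protein, had 6094 and 6456 in the ES cell inputs, 6732 and 7191 in the ES cell IPs, 6253 and 7961 in the ELA inputs and 3381 and 3439 in the ELA IPs. Again the ELA IPs were the lowest libraries, and the change in enrichment was −1.20 ± 0.15. Srsf9 (chr5:115327163-115333843, GRCm38), a short SR protein with few RS repeats, had 768 and 654, 579 and 553, 1142 and 1102, and 370 and 331 in the same order. Its total RNA rose 1.58-fold while its ribosome-bound RNA fell (log2 change −0.69), and its change in enrichment of −1.35 ± 0.17 was the lowest of the SR genes. Its ribosome-bound RNA turned to a rise (0.31) with length and GC content removed, where its change in enrichment was −0.83. The others changed by −0.99 (Srsf10), −0.78 (Srsf3), −0.72 (Tra2a, a transformer-type SR-related activator), −0.69 (Srsf6), −0.46 (Srsf7) and −0.43 (Srsf5). Across the 73 genes the share of arginine and serine codons had a Pearson r of −0.11 with the change in enrichment, and the share of glycine codons one of −0.37 (Spearman rho −0.09 and −0.29).

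Among the 8 snRNP genes ribosome enrichment fell in all 8, ribosome-bound RNA fell in all 8, each by more than 1 on the log2 scale, and total RNA fell in 7 (background 27.7%, 42.3% and 35.8%), with Snrpd1 (−0.09) not passing the test. Snrpd2 (chr7:19149445-19152734, GRCm38) is one of the Sm proteins that form a ring around most spliceosomal RNAs. It had 885 and 704.8 in the ES cell inputs and 561 and 575 in the ES cell IPs. In ELA it had 571 and 541 in the inputs and 119 and 89.6 in the IPs. The ELA IPs were below every other library, and ribosome-bound RNA was 5.45-fold lower in ELA than in ES cells. The change in enrichment was −1.94 ± 0.19 (limma, adjusted p = 6.3e-10). The first ELA input held only 21 reads of this gene and the second 51.

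The other Sm genes, Snrpg, Snrpe, Snrpf and Snrpd1, had changes in enrichment of −1.23, −1.21, −1.13 and −0.94. Their ribosome-bound RNA changed by −2.08, −1.58, −2.07 and −1.03 on the log2 scale. Snrpb2, an RNA-binding protein of the U2 particle, was enriched in the ES cell IPs (1688 and 1841 against 1293 and 1193 in the inputs) and depleted in the ELA IPs (605 and 636 against 843 and 1124). Its change in enrichment was −1.15. Snrpa, of the U1 particle, and Snrpa1, of the U2 particle, both changed by −0.65. These are among the shortest transcripts of the 73, with a median length of 849 bases, and with length and GC content removed 5 of the 8 no longer passed the test for enrichment (Snrpe, Snrpf, Snrpd1, Snrpa and Snrpa1), while Snrpd2 had −0.81. In the same fit ribosome-bound RNA was lower in 6 and higher in 1 (Snrpd1, 0.37), with none below −1 and a median of −0.55 (background 38.7% and 39.1%). Total RNA was lower in 3, which is 37.5% and equals the background, and higher in 1 (Snrpd1, 0.37), where the background was 32.8%.

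**Figure D4:**
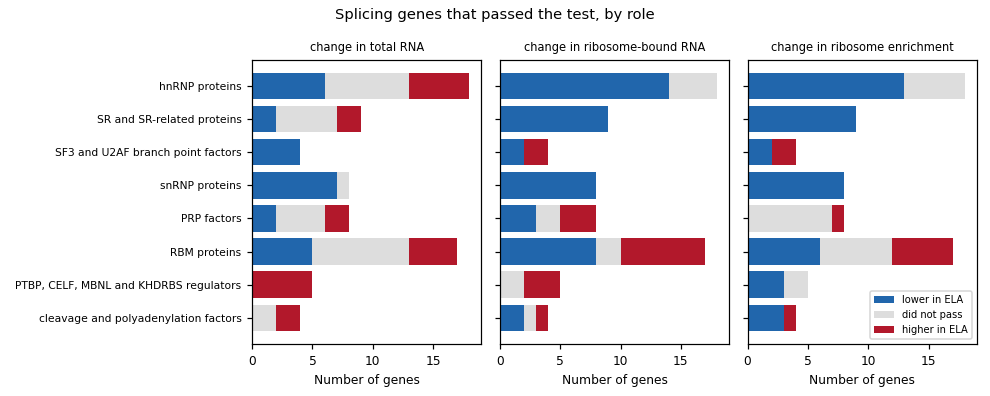
Number of splicing genes (x axis) in each role that were lower in ELA (blue), did not pass the test (grey) or were higher in ELA (red), for total RNA, ribosome-bound RNA and ribosome enrichment. In the right panel the hnRNP, SR and snRNP rows hold no red, and the PTBP, CELF, MBNL and KHDRBS row is all red in the left panel.

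Among the 8 PRP genes 1 rose in ribosome enrichment and none fell (background 28.4% and 27.7%). Prpf8 (chr11:75486777-75509447, GRCm38), the protein at the heart of the catalytic centre, had 4264 and 4744 in the ES cell inputs, 4447 and 5029 in the ES cell IPs, 4350 and 3615 in the ELA inputs and 12199 and 11789 in the ELA IPs. The other 6 libraries overlapped and the ELA IPs stood above them. Ribosome-bound RNA was 2.54-fold higher in ELA, the total RNA change of −0.18 did not pass the test, and the change in enrichment was 1.52 ± 0.15 (limma, adjusted p = 5.0e-10), the highest of the 73. In the length-corrected fit the rise in ribosome-bound RNA was 0.62 on the log2 scale, against 1.34 before, and total RNA fell (−0.43), as it also did without the first ELA input (−0.32). None of the other 7 PRP genes passed the test for enrichment, with values from −0.34 (Prpf3, of the tri-snRNP) to 0.32 (Prpf6). Prpf38a passed it in the length-corrected fit (0.56, from 0.003), which gave 2 higher of the 8 (background 27.5%), and without the first ELA input Prpf6 (0.45) and Prpf3 (−0.36) passed. The kinase gene Prpf4b rose in total RNA (0.96) and in ribosome-bound RNA (0.72).

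Among the branch point factors, 2 genes rose in ribosome enrichment and 2 fell (background 28.4% and 27.7%), while all 4 fell in total RNA (background 35.8%). Without the first ELA input Sf3b6 (−0.23) and U2af2 (−0.24) no longer passed the test for total RNA, so 2 of the 4 fell (background 36.4%). With length and GC content removed 2 of the 4 fell as well (background 37.5%), since Sf3b6 (0.06) and U2af2 (−0.07) did not pass the test, and the fall in enrichment of Sf3b6 (−0.33) was lost as well. Sf3b3 (chr8:110810491-110846806, GRCm38), a scaffold subunit of SF3B, had 4996 and 4999 in the ES cell inputs, 4683 and 5077 in the ES cell IPs, 4105 and 4219 in the ELA inputs and 10004 and 9799 in the ELA IPs. As with Prpf8 the ELA IPs stood above the rest, and the change in enrichment was 1.29 ± 0.14 (limma, adjusted p = 3.0e-09). Sf3b1, the subunit that clamps the branch point helix, had a change of 0.55, and its ribosome-bound RNA change of 0.32 turned to −0.17 with length and GC content removed. Sf3b6, the small subunit that touches the branch point, had −1.07, and U2af2, which reads the polypyrimidine tract, −0.55. Sf3b6 was enriched in ES cells (0.36), a call that was lost when all 8 libraries entered the fit.

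Of 17 RBM genes, 6 were lower (35.3%) and 5 higher (29.4%) in the change in ribosome enrichment, near the background of 27.7% and 28.4%. Rbm7, part of the nuclear exosome targeting complex, had 356 and 440 in the ES cell inputs, 319 and 345 in the ES cell IPs, 652 and 477 in the ELA inputs and 179 and 170 in the ELA IPs. Its ELA inputs lay above and its ELA IPs below all ES cell libraries, with a change in enrichment of −1.42 ± 0.20. The cold-inducible Rbm3 had −1.24 and Rbm14, a paraspeckle protein, −0.77. Rbm26, Rbm33, Rbm5, Rbm15 and Rbm6 rose, by 0.65, 0.64, 0.49, 0.47 and 0.40. For Rbm33, the longest transcript of the 73 with 9501 bases, the value was 0.02 in the length-corrected fit and no longer passed the test. The calls of Rbm15 (0.25), Rbm34 (−0.14), Rbm39 (−0.03) and Rbmxl1 (−0.11) were lost in that fit as well and Rbm27 (−0.34) gained one, which gave 4 lower and 3 higher of the 17.

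Rbmx, an X-linked gene of an hnRNP G protein, and the related Rbmxl1, which was singled out after its values were seen, went in opposite directions. Rbmx (chrX:57383348-57393046, GRCm38) rose in total RNA (0.92), from 291 and 306 to 571 and 562 in the inputs, and in ribosome-bound RNA (1.05), from 176 and 147 to 338 and 332 in the IPs. Rbmxl1 (chr8:78505269-78508928, GRCm38) fell in total RNA (−0.70), from 1985 and 1825 to 1088 and 1261, and in ribosome-bound RNA (−1.09), from 1633 and 1800 to 860 and 754. Their coding sequences were 90.9% identical, at 1061 of 1167 aligned bases, and the longest identical run was 67 bases. Reads from such a stretch could be counted for either gene, so both values are uncertain. The first 120 coding bases of each gene, from the GENCODE vM1 annotation, show how sparse the differences are, with the 8 bases at which they differ in capitals.
Rbmx: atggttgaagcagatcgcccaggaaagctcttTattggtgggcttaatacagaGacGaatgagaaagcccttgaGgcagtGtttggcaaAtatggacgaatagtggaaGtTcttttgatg
Rbmxl1: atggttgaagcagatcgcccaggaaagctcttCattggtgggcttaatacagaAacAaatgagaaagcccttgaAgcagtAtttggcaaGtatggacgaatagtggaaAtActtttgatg

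Summed over both genes, the normalised counts were 2276 and 2132 in the ES cell inputs, 1809 and 1947 in the ES cell IPs, 1658 and 1823 in the ELA inputs and 1198 and 1086 in the ELA IPs. The sum was thus lower in ELA than in ES cells in both fractions, with no overlap.

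The regulators of tissue-specific splicing, of which 5 were measured and none of the Mbnl genes, all rose in total RNA (background 34.5%). In the length-corrected fit 4 of the 5 rose (background 32.8%), and Ptbp3 went from 0.50 to −0.16, which did not pass the test. Celf2, which is known for neural and muscle splicing, had 75.8 and 92.1 in the ES cell inputs and 272 and 265 in the ELA inputs, and 81.2 and 79.0 in the ES cell IPs and 216 and 198 in the ELA IPs. Both fractions rose without overlap (log2 changes of 1.67 ± 0.16 and 1.35, or 1.20 and 0.51 with length and GC content removed). However, the ELA inputs held only 10 and 25 reads of this gene, and the printed standard error is smaller than the counting error at that depth. Ptbp2, the neural paralogue of the polypyrimidine tract binding protein, had 545 and 517 in the ES cell inputs, 563 and 648 in the ES cell IPs, 1088 and 1219 in the ELA inputs and 774 and 745 in the ELA IPs. It rose by 1.12 in total RNA and by 0.33 in ribosome-bound RNA, and its change in enrichment was −0.79 ± 0.17. Khdrbs1 (Sam68) and Khdrbs3, signal-responsive STAR proteins, changed in enrichment by −0.78 and −0.53, and Ptbp3 and Celf2 had −0.22 and −0.32, which did not pass the test. Celf2 passed it in the length-corrected fit (−0.70), where 4 of the 5 were lower (background 25.9%). The nervous system marker Nes rose in the same inputs, as given above, and its part in these values was not tested.

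Of the cleavage and polyadenylation factors, which form the 3′ end of messages, 3 fell and 1 rose in ribosome enrichment (background 27.7% and 28.4%). Cpsf6, the CFIm subunit that favours distal poly(A) sites, had 1917 and 1961 in the ES cell inputs, 1892 and 2088 in the ES cell IPs, 3154 and 3085 in the ELA inputs and 1835 and 1757 in the ELA IPs. Total RNA rose 1.61-fold, ribosome-bound RNA did not pass the test (−0.15), and the change in enrichment was −0.83 ± 0.15. The total RNA change was 0.018 with length and GC content removed and did not pass the test, and in the same fit ribosome-bound RNA fell (−0.85) and the change in enrichment was −0.87. Cstf2t and Cstf3 of the cleavage stimulation factor had −0.60 and −0.58, of which Cstf3 (−0.23) lost its call in the length-corrected fit. Cpsf2, a scaffold of the cleavage complex, had 0.74 ± 0.15, with 1272 and 1413 in the ES cell inputs, 1669 and 1753 in the ES cell IPs, 1903 and 1664 in the ELA inputs and 3692 and 3891 in the ELA IPs.

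A separate list of other RNA-processing genes (further spliceosome, exon junction, helicase and 3′ end factors, chosen by name) held 64 genes of the table. Ribosome enrichment fell from ES cells to ELA in 32 of them and rose in 9, with a median of −0.38 on the log2 scale, so that 50.0% fell and 14.1% rose against the background of 27.7% and 28.4%. Ribosome-bound RNA rose in 11 and fell in 39 (17.2% and 60.9%, background 41.1% and 42.3%). Total RNA rose in 17 and fell in 25 (26.6% and 39.1%), near the background of 34.5% and 35.8%. In the length-corrected fit enrichment fell in 28 and rose in 11 (background 25.9% and 27.5%), with a median of −0.23, and ribosome-bound RNA rose in 17 and fell in 34 (background 39.1% and 38.7%). Without the first ELA input enrichment fell in 34 and rose in 12 (background 30.5% and 30.4%). The highest changes in enrichment were Eftud2, the GTPase partner of Prpf8 in the U5 particle (1.49), and Wdr33, which reads the poly(A) signal (1.38). The lowest were Dnajc8, a spliceosome-associated J protein (−1.74), and Lsm7, a subunit of the ring on U6 RNA (−1.46), whose call was lost in the length-corrected fit (−0.20).

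**Figure D5:**
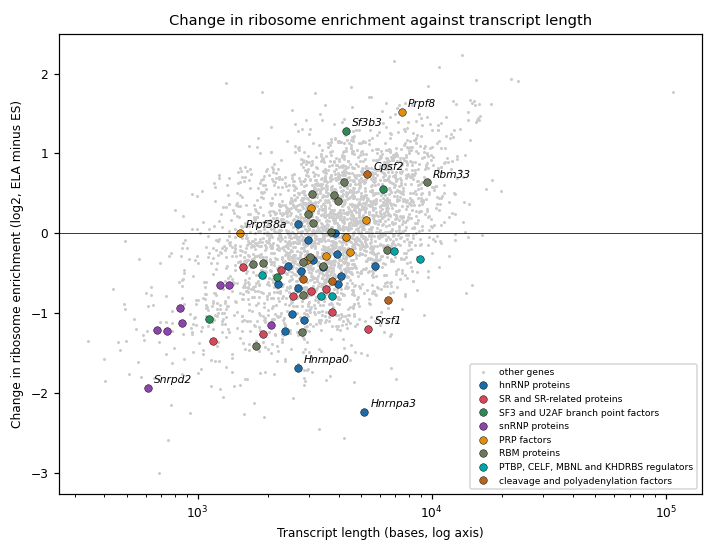
Change in ribosome enrichment (y axis, log2, ELA minus ES cells) against transcript length in bases (x axis, log scale) for the splicing genes, coloured by role, over the other genes in grey. Short transcripts such as Snrpd2 (613 bases) lie low and long ones such as Prpf8 (7442 bases) high, while Hnrnpa3 (5150 bases) lies lowest of the coloured points.

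Transcript length moved with these values. The splicing genes had a median length of 3016 bases, against 3693 over the 3120 genes with an annotated length. Log2 length and the change in enrichment had a Pearson r of 0.51 over the 73 genes and 0.48 over the 3120, a description across genes of the same libraries. Among transcripts under 2000 bases, enrichment fell in 14 of 16 splicing genes (87.5%) and in 51.9% of the 491 other genes. From 2000 to 4000 bases it fell in 25 of 40 (62.5%) and in 31.8% of 1190 others. From 4000 bases up it fell in 5 of 17 (29.4%) and rose in 6, where 13.8% of 1366 others fell and 43.4% rose. In the length-corrected fit 28 of the 44 falls and 7 of the 9 rises were still called, and without its replicate block 26 and 7. Kept in the length-corrected fit were, among others, Hnrnpa3 (−2.13), Hnrnpa0 (−1.71), Srsf1 (−1.14), Srsf2 (−1.06), Prpf8 (1.05) and Sf3b3 (1.06). Whether the counting used strand was not given in the sources used here, and 14 of the 73 genes overlap an exon of a gene on the opposite strand, Srsf1, Srsf2, Sf3b3, Hnrnpab, Hnrnpf, Celf2 and Rbm3 among them. If strand was not used, reads from the shared exon stretches of these genes could have been counted for either gene, which was not tested.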

How the data were processed

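ES cells and ELA were lysed with cycloheximide, part of the lysate was kept as input and the rest went to the Rpl10a-IP. Ribosomal RNA was depleted before library preparation. Per the methods and the submitters' processing notes, the authors aligned reads with TopHat2 to mm10 (GRCm38), excluding repeats, counted them per gene with HTSeq and scaled the counts with DESeq2 size factors. The products of the size factors were 1.05 over the inputs and 1.03 over the IPs, so the factors look to have been set within each fraction, whereas the methods describe a reference taken over all samples. The deposited values are thus a normalised signal per gene and library. The deposited table holds 26 other columns (the authors' means, SDs, IP/input ratios and the log2 change of the ratio), which were not used. Control IPs with another antibody were not analysed here.

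Each deposited signal is a whole multiple of what 1 read is worth in that library. No value was more than 1e-09 from a whole number. The read total of each library over the 3160 genes was taken from these steps. Values were rescaled over all 8 libraries by trimmed means of M values (TMM) and analysed as log2(normalised count + 1). For each comparison limma 3.58.1 (R 4.3.3; lmFit, eBayes with a mean trend) was fitted to all 3160 genes with 1 coefficient per group, with Benjamini-Hochberg adjustment over all of them and a threshold of 0.05. Fold changes are on the log2(normalised count + 1) scale. The study excluded the first ELA input. Here it was left out of the fits for enrichment in ES cells and for ribosome-bound RNA, to which it adds only spread, and kept in the other 3 comparisons, which need ELA inputs and used 8 libraries. In these 7-library fits limma's prior degrees of freedom were infinite, so their p-values are not printed, and in the 8-library fits they were 30.7. The spread between 2 libraries limits all tests. Standard errors are those of limma, moderated across genes. The main fits weighted all libraries alike despite their unequal depth. For genes with few ELA input reads these errors and the p-values can therefore be too small. The scripts were also run on simulated counts with a constant spread and without the filter on replicate spread. That run cannot show how well the p-values hold for these filtered genes.

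The members, gene lists and tests were chosen with earlier results of these data known. Genes were named by rule: per comparison the 6 largest called rises and falls, per role the highest and lowest change in enrichment, and a fixed set of families. Of the other lists, cell type markers and the 2 highest and 2 lowest called other RNA-processing genes were named. All 73 genes matched RefSeq (GRCm38.p6), the source of the coordinates. Transcript lengths, GC content and coding sequences came from GENCODE vM1, using the longest model of each gene.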

Additional observations from a re-analysis of the deposited data

Results flagged for a closer look

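The effect of the IP differed between ES cells and ELA by the interaction test of limma for 53 of the 73 splicing genes (72.6%) and for 56.2% of all 3160 genes, and 17 of the 53 were the extremes of the 73 or of their role. The higher ones had a change in log2 enrichment of 1.52 for Prpf8, 1.29 for Sf3b3, 0.74 for Cpsf2, 0.65 for Rbm26, 0.64 for Rbm33 and 0.55 for Sf3b1. The lower ones had −2.24 for Hnrnpa3, −1.94 for Snrpd2, −1.68 for Hnrnpa0, −1.42 for Rbm7, −1.35 for Srsf9, −1.26 for Srsf2, −1.07 for Sf3b6, −0.83 for Cpsf6, −0.79 for Ptbp2, −0.65 for Snrpa1 and −0.43 for Srsf5. Of the 17, Rbm33, Sf3b6, Snrpa1 and Srsf5 did not pass the test with length and GC content removed, with 0.02, −0.33, −0.20 and 0.12. No group held the 4 libraries needed to look for single libraries far from the others.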

How the results depend on the processing

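The number of splicing genes called stayed within 1.5 times its main value under every alternative run. Leaving out 1 library at a time gave 18 to 26 calls for enrichment in ES cells (main 27), 55 to 60 in ELA (59), 34 to 49 in total RNA (46), 60 to 61 in ribosome-bound RNA (62) and 41 to 57 for the change in enrichment (53). Without the first ES cell input, 44.4% of the ES cell calls were higher, against 29.6%, and 52.9% of the total RNA calls, against 43.5%. Scaling by total reads moved the median of all genes to −0.12 for enrichment in ELA, and the deposited scaling moved it to −0.12 in the inputs and −0.14 in the IPs. The deposited scaling was not run for the enrichment within a stage, since its factors look to have been set within inputs and within IPs. DESeq2 and edgeR, planned as count tests, were not run. The values are whole multiples of 1 read, but 7 of the 8 libraries hold no gene with 1 read, and the values were not accepted as counts on that ground. The replicate numbers were not taken as pairs (correlations of same-numbered deviations of 0.170 and 0.504 between input and IP, 0.153 between inputs and −0.025 between IPs), and with the replicate block 54 genes were called for the change in enrichment, 32 and 59 for enrichment in ES cells and ELA, 50 in total and 62 in ribosome-bound RNA. Removing length and GC content was the one alternative under which single values turned. With the block, of 247 calls over the 73 genes and 5 comparisons, 183 were kept, 45 were lost and 19 turned, and 4 values that had not passed the test passed it with the other sign. The turned values were the same without the block. They were 0.017 for Snrpd2 and 0.010 for Snrpg in ES cell enrichment, and −0.16 for Rbm33, 0.049 for Sf3b6, 0.12 for Snrpa1, 0.44 for Snrpd1 and 0.28 for Rbm15b in ELA enrichment. In total RNA they were 0.064 for Sf3b6, 0.056 for Snrpd2, 0.14 for Snrpe, 0.37 for Snrpd1, −0.26 for Srsf1 and −0.16 for Ptbp3. In ribosome-bound RNA they were 0.44 for Prpf38a, −0.17 for Sf3b1, 0.37 for Snrpd1, 0.038 for Srsf5, 0.31 for Srsf9, −0.46 for Ptbp3 and 0.36 for Khdrbs3. In the change in enrichment they were 0.0044 for Snrpd1, 0.12 for Srsf5 and 0.16 for Srsf7. The cause was not tested. The correction without the block and library quality weights were chosen after seeing the data. Leaving out 1 library cost 124 calls over all such fits, added 32 and turned none. The ELA inputs limit every comparison they enter.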
